A study of Mus musculus with 4 samples.

Results

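Interferon response genes are the genes whose transcription rises in cells exposed to interferons, and 41 of them were examined in fatty liver of the mouse. Each gene was represented by the probe set annotated to its symbol alone, taking the one with the highest mean over the arrays where a gene had several, and Rigi was accepted as a synonym of Ddx58. Of the 41 genes, 37 had such a probe set, among 19938 genes measured in this way on the whole array. The samples were livers of 4 male mice at 24 weeks of age, all of 1 phenotype, C57Bl6-TgN aP2-HA-hSREBP-1c-NT, written aP2-SREBP-1c. These mice have the C57Bl6 background and carry an HA-tagged, active N-terminal part of human SREBP-1c behind the aP2 promoter, which directs the transgene to adipose tissue and not to liver. The animals lack functional adipose tissue and store lipid in a massively steatotic liver. All 4 mice had the transgene and free access to regular chow, and arrays of mice without it were not analysed here. Therefore levels within the phenotype and their spread between mice are described, with no test and no p-value. The RNA input was 150 ng per liver, and 1 Mouse Gene 1.0 ST array was used per mouse, so that biological and technical spread cannot be told apart.

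Interferons are secreted by cells that sense viral or displaced nucleic acids, and they act on neighbouring cells through surface receptors. Type I and type III interferons activate the kinases JAK1 and TYK2 and the factor ISGF3, with STAT2 and IRF9 among its subunits, which binds the interferon-stimulated response element. Interferon gamma acts through the gamma-activated site and induces IRF1, GTPases of the GBP and IRG families and the machinery of antigen presentation. In liver, hepatocytes and Kupffer cells both respond to interferons, and the response is best known from viral hepatitis.

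Some promoters of these genes matched a sequence motif through which interferons are known to act, and 7 stretches with a match are shown. Those of Bst2, Irgm1, Irf1 and Rsad2 were chosen because these genes had a match and were above background with a range over 1.5-fold between mice. Those of Isg15, Ifit1 and Ifit3 were chosen because they are classical targets of ISGF3. RefSeq promoter windows, reaching from 250 bases before to 50 bases after a transcription start in the build GRCm38.p6, were at hand for 31 of the 41 genes. In 23 of these 31 genes, a window started from the outer end of the RefSeq gene. In the other genes none did, and where their windows lie relative to the gene was not examined. The stretches are printed 5′ to 3′ on the strand of the gene, with all matches to either motif in capitals. They lie at chr4:156200850-156200921 on the minus strand for Isg15, chr19:34640760-34640838 on the plus strand for Ifit1, chr19:34583348-34583441 on the plus strand for Ifit3 and chr12:26456538-26456597 on the minus strand for Rsad2. Those of Bst2 (chr8:71537562-71537633) and Irgm1 (chr11:48871421-48871475) are on the minus strand, and that of Irf1 (chr11:53769899-53769957) is on the plus strand.
Isg15: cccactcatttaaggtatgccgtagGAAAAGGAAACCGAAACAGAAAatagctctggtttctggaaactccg
Ifit1: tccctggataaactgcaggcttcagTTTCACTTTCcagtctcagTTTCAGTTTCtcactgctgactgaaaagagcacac
Ifit3: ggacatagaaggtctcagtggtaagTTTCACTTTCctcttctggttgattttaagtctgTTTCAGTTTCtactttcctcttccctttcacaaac
Rsad2: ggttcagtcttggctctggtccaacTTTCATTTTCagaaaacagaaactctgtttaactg
Bst2: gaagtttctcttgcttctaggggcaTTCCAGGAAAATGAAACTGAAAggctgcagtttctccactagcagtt
Irgm1: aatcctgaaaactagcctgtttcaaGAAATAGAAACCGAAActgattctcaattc
Irf1: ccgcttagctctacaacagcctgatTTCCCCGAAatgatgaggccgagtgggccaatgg

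The interferon-stimulated response element was searched as GAAANNGAAA on both strands, where N is any base, and a match on the other strand begins with TTTC. At least 1 match was present in 14 of the 31 genes (45.2%), whereas 3.99% of 27025 genes with a promoter window had one. Among windows of the same length, the share was 3.44% of 32851. The genes with a match were Bst2, Cxcl10, Ddx58, Gbp2, Gbp3, Ifih1, Ifit1, Ifit3, Ifitm3, Igtp, Irgm1, Isg15, Rsad2 and Stat2. In Isg15, 3 matches overlapped in a row between bases -78 and -57 from the start, seen as the long stretch in capitals. Ifit1 and Ifit3 each had 2 separate matches, both on the other strand.

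The gamma-activated site was searched as TTCNNNGAA, which reads the same on both strands, and was matched in 7 of the 31 genes (22.6%), compared with 9.55% of all genes and 8.30% of all windows. These genes were Bst2, Ifi35, Ifit2, Ifitm3, Igtp, Irf1 and Psmb8. Bst2, Ifitm3 and Igtp had matches to both motifs. In 2 cases the match to the gamma-activated site overlapped one to the response element, in Bst2 and in Ifitm3. In Irf1, an early target of interferon gamma, the only match was the gamma-activated site at bases -90 to -82. A match is a description of the letters and shows neither binding nor use of the site in these livers.

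**Figure D1:**
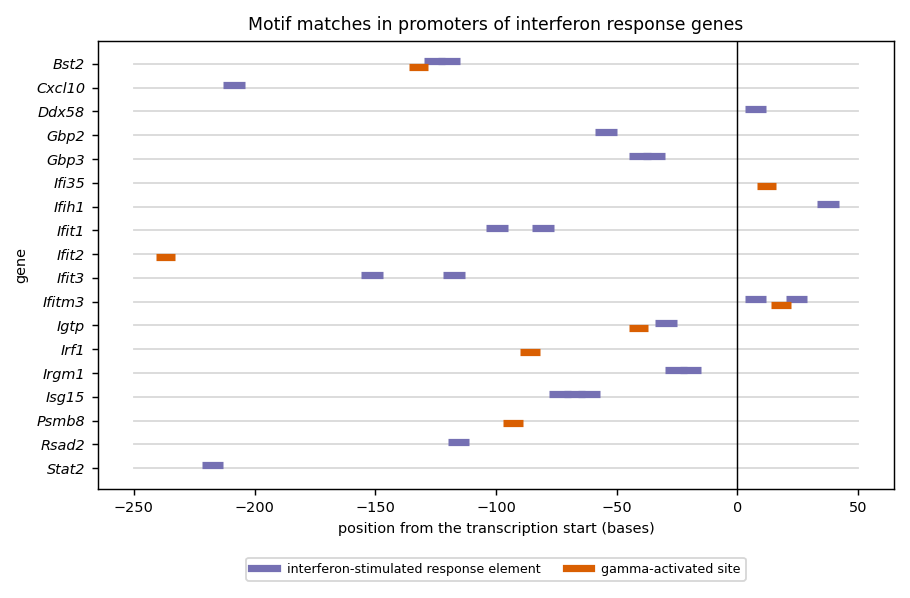
Position of each match to the interferon-stimulated response element and the gamma-activated site, in bases from the transcription start (x axis), in the genes of the set that had a match (y axis). Grey lines span the searched window, and most matches of the response element lie before the start, with those of Ddx58, Ifih1 and Ifitm3 after it.

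The authors' values are log2 expression from RMA, so that a difference of 1 corresponds to a 2-fold change in signal. Above background means beyond a limit in each of the 4 mice, set at the 95th percentile of 1210 olfactory and vomeronasal receptor probe sets, since liver is not known to use these genes. This limit was 5.52, 5.36, 5.34 and 5.33 in mice 1 to 4, and it was exceeded by 12264 genes. The array of mouse 1 was compressed relative to the others. Among 10 classes of mean level, its median difference from the other mice ran from 0.13 in the lowest class to -0.23 in the highest. Values from quantile normalization of the 4 arrays, which removes this compression, are therefore given beside the main counts and the widest ranges. The hepatocyte markers Alb and Apoa1, which encode albumin and the main apolipoprotein of HDL, were between 14.29 and 14.37 and between 13.68 and 13.89, and all 8 hepatocyte markers measured were above background.

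Of the 37 interferon response genes measured, 30 were above background. The remaining 7 comprised Ifit1, Ifit2, Oas2, Mx1, Mx2, Cmpk2 and Xaf1. Another 4 genes had no probe set of their own. Isg15, the ubiquitin-like modifier, shared its probe set with Gm9706, Gbp2 with Gbp2b and Igtp with Irgm2, while no probe set was named for Ifi44. Since these are whole livers, fewer cells of a type and less RNA per cell cannot be told apart in any of the values below.

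**Figure D2:**
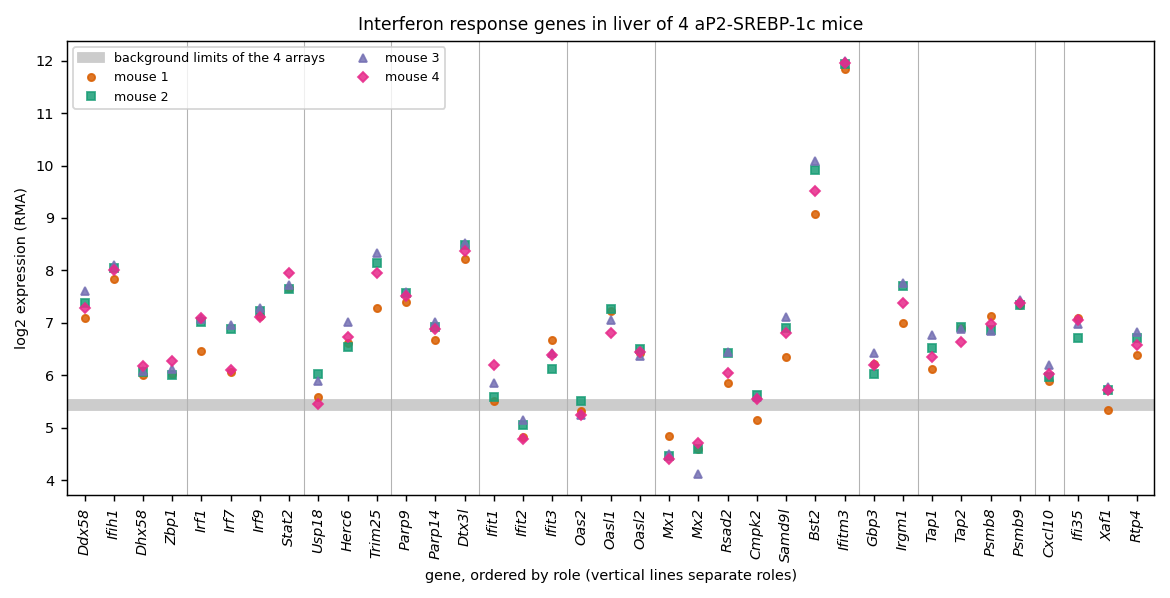
Log2 expression (RMA, y axis) of the 37 measured interferon response genes in each of the 4 mice (symbols), ordered by role (x axis). The grey band covers the background limits of the 4 arrays, Ifit2, Mx1 and Mx2 lie below it in all mice, and Bst2 and Trim25 show mouse 1 apart at the bottom.

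The cytosolic sensors of nucleic acids were all measured above background. Ddx58 encodes RIG-I, which recognises viral RNA with a free triphosphate end, and its values were 7.10, 7.37, 7.61 and 7.28 in mice 1 to 4 (7.34 ± 0.21, SD, n = 4). Ifih1, which encodes MDA5, the sensor of long double-stranded RNA, gave 7.83, 8.05, 8.11 and 8.01. Both genes were lowest in mouse 1 and highest in mouse 3, and mouse 1 remained the lowest after quantile normalization. Dhx58 encodes LGP2, a regulator of the other two receptors, and it ranged from 6.00 in mouse 1 to 6.18 in mouse 4. Zbp1, a sensor of Z-form nucleic acids that can trigger cell death, ranged from 6.00 in mouse 2 to 6.28 in mouse 4. The range, which is the highest over the lowest mouse on the linear scale, did not exceed 1.5-fold in any of the 4 sensors, and that of Ddx58 was 1.42-fold.

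With the probe sets used, the transcription factors of the response fell into a pair with a wide and a pair with a narrow spread. The wide spread of Irf1 was not seen with the mean of its 2 probe sets. Irf7, the factor that amplifies transcription of the interferon alpha genes, was 6.07 in mouse 1, 6.88 in mouse 2, 6.96 in mouse 3 and 6.10 in mouse 4 (6.50 ± 0.48, 95% CI 6.18 to 6.83). Mice 1 and 4 were thus low and mice 2 and 3 high, with a 1.85-fold range that was also 1.85-fold after quantile normalization and 1.80-fold without mouse 1. It had the largest SD of the 30 genes. Irf1 was 6.47 in mouse 1 against 7.02, 7.08 and 7.09 in mice 2 to 4, a 1.54-fold range that was 1.05-fold without mouse 1. A second Irf1 probe set gave the opposite picture, with 6.25 in mouse 1 and 6.01, 6.00 and 5.83 in the others, so that the low value of mouse 1 was seen with 1 of 2 probe sets. The mean of both probe sets was 6.47 ± 0.08 (SD, n = 4), and with it Irf1 no longer exceeded a 1.5-fold range. The subunits of ISGF3 varied less than Irf7. Irf9, its DNA-binding subunit, ranged from 7.10 in mouse 4 to 7.28 in mouse 3, and Stat2 from 7.64 in mouse 2 to 7.95 in mouse 4.

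Among ubiquitin-like modifiers and ligases, Trim25 had the widest range of the 30 genes in the deposited values. This ubiquitin ligase activates RIG-I, and its values were 7.28, 8.15, 8.33 and 7.95 in mice 1 to 4 (7.93 ± 0.46, 95% CI 7.62 to 8.24). Mouse 1 stood below the other mice, with a 2.07-fold range that was 1.85-fold after quantile normalization and 1.30-fold without mouse 1. Usp18 removes ISG15 from its targets and restrains signalling at the type I receptor, and it was 5.58, 6.03, 5.90 and 5.44. In Usp18, mice 1 and 4 were low, as in Irf7, with a range that lay just beyond 1.5-fold and was 1.46-fold after quantile normalization. Its mean exceeded the mean background limit by 0.35 only. Herc6, the ligase that attaches ISG15 in mice, ranged from 6.54 in mouse 2 to 7.01 in mouse 3.

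Parp9, Parp14 and Dtx3l lie next to each other on chromosome 16 with no other coding gene between them, and Parp9 and Dtx3l form a complex of ADP-ribosylation and ubiquitylation. Dtx3l gave 8.21, 8.49, 8.53 and 8.36 in mice 1 to 4. Parp14 gave 6.66, 6.92, 7.01 and 6.87, and Parp9 gave 7.40, 7.58, 7.58 and 7.51. All 3 neighbours had mouse 1 lowest, then mouse 4, mouse 2 and mouse 3, although no range exceeded 1.27-fold. After quantile normalization Dtx3l was lowest in mouse 4, and Dtx3l and Parp9 were highest in mouse 2.

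The proteins of the IFIT family bind foreign RNA and block its translation, and their genes were low in these livers. Ifit3 was the only one above background and was 6.67, 6.11, 6.42 and 6.39 in mice 1 to 4 (6.40 ± 0.23). It was highest in mouse 1 and lowest in mouse 2, unlike most of the set, with a range of 1.47-fold as deposited and 1.51-fold after quantile normalization. Ifit1 was 5.50, 5.58, 5.86 and 6.20, above the limit on 3 arrays. Ifit2, which lies next to Ifit3 on chromosome 19, was between 4.79 and 5.14 and above the limit on 0 arrays. The window of Ifit3 had 2 matches to the response element, and that of Ifit2 had only a match to the gamma-activated site.

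The OAS family makes 2′-5′ oligoadenylates that switch on RNase L, whereas OASL1 lacks this activity. Oasl1, a repressor of Irf7 translation, was 7.23, 7.25, 7.06 and 6.81 in mice 1 to 4, and Oasl2 ranged from 6.36 in mouse 3 to 6.51 in mouse 2. Oasl1 was lowest in mouse 4 and not in mouse 1. Oas2 was between 5.25 and 5.51 and above the limit on 1 array.

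Of the other antiviral effectors, the genes of membrane proteins were well above background and those of the MX GTPases were not. Bst2 encodes tetherin, which holds budding virions at the cell surface, and it was 9.07, 9.92, 10.08 and 9.51 in mice 1 to 4 (9.65 ± 0.45, 95% CI 9.34 to 9.95). Mouse 1 was lowest and mouse 4 next, with a 2.01-fold range, of which 1.70-fold remained after quantile normalization and 1.49-fold without mouse 1. Bst2 and Trim25 were the 2 genes with more than a 2-fold range. Ifitm3, which blocks the entry of viruses through endosomes, varied little, between 11.83 in mouse 1 and 11.99 in mouse 3, and was highest in mouse 1 after quantile normalization. The Bst2 and Ifitm3 promoters both matched both motifs, yet the spread of the genes differed, with an SD of 0.45 in Bst2 and 0.07 in Ifitm3.

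Rsad2 encodes viperin, a radical SAM enzyme that makes a chain-terminating nucleotide, and it was 5.86, 6.42, 6.44 and 6.04 in mice 1 to 4 (6.19 ± 0.29). Mice 1 and 4 were low and mice 2 and 3 were high, with a range just beyond 1.5-fold that was 1.55-fold after quantile normalization. Its neighbour on chromosome 12, Cmpk2, a mitochondrial nucleotide kinase, was 5.16, 5.62, 5.58 and 5.54 and above the limit on 3 arrays. Samd9l, a restriction factor of poxviruses, was 6.35, 6.89, 7.11 and 6.81, a 1.69-fold range with mouse 1 lowest. Mx1 and Mx2, which encode the dynamin-like GTPases that arrest viral nucleocapsids, were between 4.40 and 4.84 and between 4.11 and 4.70, above the limit on 0 arrays.

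The GTPases that interferon gamma induces against intracellular parasites were covered by 2 genes with a probe set of their own. Irgm1, a regulator of the IRG family, was 6.99, 7.70, 7.76 and 7.39 in mice 1 to 4 (7.46 ± 0.35), and mouse 1 was lowest with a range of 1.70-fold, or 1.57-fold after quantile normalization. Gbp3 was 6.22, 6.03, 6.43 and 6.20, lowest in mouse 2. Irgm1 and Gbp3 both had overlapping matches of the response element within 50 bases before the start. The probe set shared by Gbp2 and Gbp2b was 5.07, 5.83, 5.84 and 5.37, and that shared by Igtp and Irgm2 was between 7.03 and 7.19. The first of these had mice 1 and 4 low, whereas the second varied by 1.12-fold only.

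The genes of antigen processing lie together on chromosome 17 in the order Psmb9, Tap1, Psmb8 and Tap2, with no other coding gene between them. Tap1, a subunit of the peptide transporter of the endoplasmic reticulum, was 6.13, 6.52, 6.78 and 6.34 in mice 1 to 4 (6.44 ± 0.27), a 1.57-fold range. Its neighbour Psmb9, a catalytic subunit of the immunoproteasome, was 7.35, 7.34, 7.43 and 7.39 (7.38 ± 0.04) and had the smallest SD of the 30 genes. Psmb8, another such subunit, was 7.13, 6.87, 6.85 and 6.97 and thus highest in mouse 1, and Tap2, the partner of Tap1, ranged from 6.64 in mouse 4 to 6.93 in mouse 2. The mouse with the lowest value was a different one in each of the 4 genes, also after quantile normalization, but in median-centred arrays it was mouse 1 in Psmb9 and mouse 2 in Psmb8.

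Of the chemokine and the other induced genes, none exceeded a 1.5-fold range. Cxcl10, which attracts T cells through CXCR3, was 5.89, 5.97, 6.19 and 6.02 in mice 1 to 4, its mean 0.63 above the mean background limit. Ifi35, which encodes a partner of the protein NMI, was 7.08, 6.71, 6.99 and 7.06. Rtp4, a chaperone of receptors at the cell surface, was 6.38, 6.72, 6.82 and 6.57. Rtp4 and Cxcl10 had mouse 1 lowest and mouse 3 highest, and Ifi35 had mouse 2 lowest. Xaf1, a pro-apoptotic protein, was 5.33 in mouse 1 and between 5.72 and 5.77 in the others, above the limit on 3 arrays.

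Among the 30 genes above background, 9 (30%) had a range over 1.5-fold, namely Irf1, Irf7, Usp18, Trim25, Rsad2, Samd9l, Bst2, Irgm1 and Tap1. The same was true of 12.9% of all genes above background. Of the 9 genes, 8 were lowest in mouse 1 and Usp18 was lowest in mouse 4, while 60.5% of the 1584 genes over 1.5-fold on the whole array were lowest in mouse 1. After quantile normalization 9 genes again passed, 8 of them shared with the deposited values, Usp18 being replaced by Ifit3, while 10.6% of all genes passed. Without mouse 1, 3 of 33 genes passed, namely Irf7, Usp18 and Ifit1, beside 2.71% of all genes. The median SD was 0.17 in the 30 genes and 0.15 in all genes, and without mouse 1 it was 0.16 and 0.11. A match to the response element was present in 3 of 8 genes over 1.5-fold and in 7 of 15 genes below it that had a promoter window. Of the genes near the threshold, Usp18 and Rsad2 had ranges just beyond 1.5-fold and Ifit3 one of 1.47-fold.

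**Figure D3:**
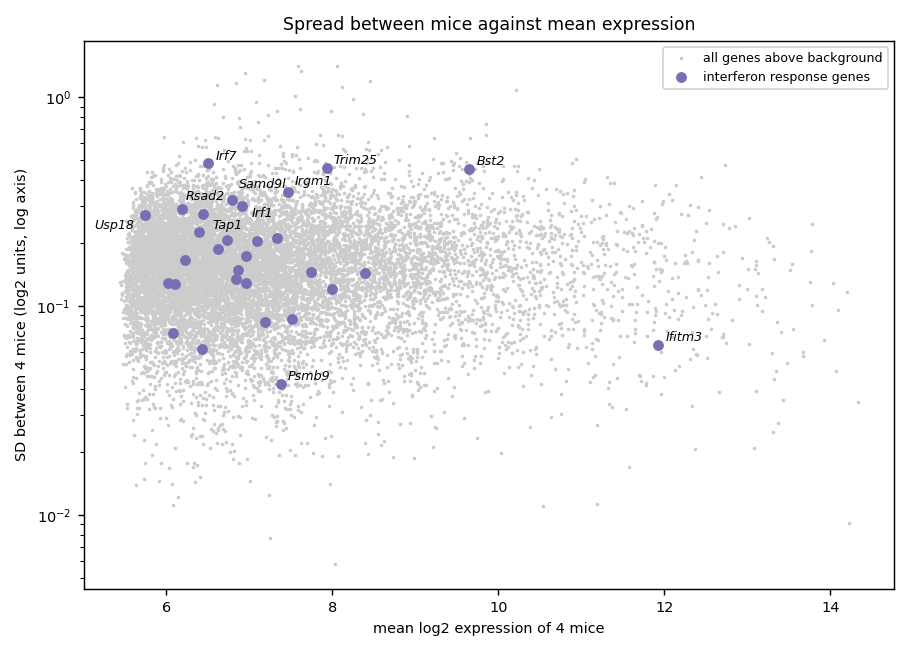
SD between the 4 mice (y axis, log scale, log2 units) against mean log2 expression (x axis) for all 12264 genes above background (grey) and the 30 interferon response genes (purple). Irf7, Trim25 and Bst2 have SDs of 0.48, 0.46 and 0.45, whereas Psmb9 and Ifitm3 have SDs of 0.04 and 0.07.

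The lowest value fell in mouse 1 in 17 of the 30 genes, compared with 46.1% of all genes. It fell in mouse 2 in 7 genes (18.8% of all genes), in mouse 3 in 2 genes (16.5%) and in mouse 4 in 4 genes (18.7%). The highest value fell in mouse 3 in 19 genes, compared with 31.4% of all genes. It fell in mouse 1 in 3 genes (22.9%), in mouse 2 in 4 genes (20.9%) and in mouse 4 in 4 genes (24.9%). The share of the lowest values in mouse 1 was thus nearer to that of all genes than the share of the highest values in mouse 3 was. After quantile normalization 14 of the 30 genes were highest in mouse 3 (23.6% of all genes), 7 were highest in mouse 1 (30.3%) and 16 were lowest in mouse 1 (36.1%). The lowest mouse was then another one in Zbp1, Dtx3l and Ifitm3, and the highest mouse was another one in Parp9, Dtx3l, Oasl1, Ifitm3, Irgm1, Tap2 and Psmb9.

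The order of mouse 1, then 4, then 2, then 3 from low to high was taken by 13 of the 30 genes, compared with 14.3% of all genes. After quantile normalization it was taken by 10 of the 30 genes, compared with 9.28% of all genes. This order was singled out after the values had been seen. It comprised genes of several roles, among them Ddx58, Irf7, Trim25, Dtx3l, Rsad2, Bst2, Irgm1, Tap1 and Rtp4. For each mouse, the difference of a gene from the average of the remaining 3 mice was taken, and its median over the 30 genes was -0.17 in mouse 1, 0.08 in mouse 2, 0.18 in mouse 3 and -0.0030 in mouse 4. Over all genes it was -0.08, 0.03, 0.05 and 0.02, and in the classes of mean level of the 30 genes it was -0.08, 0.02, 0.05 and 0.02. After quantile normalization the medians of the 30 genes were -0.12, 0.07, 0.11 and -0.01. When mouse 1 was left out, 33 genes of the set were above background. Their median difference was -0.02 in mouse 2, 0.11 in mouse 3 and -0.06 in mouse 4. The medians over all genes were not taken without mouse 1.

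**Figure D4:**
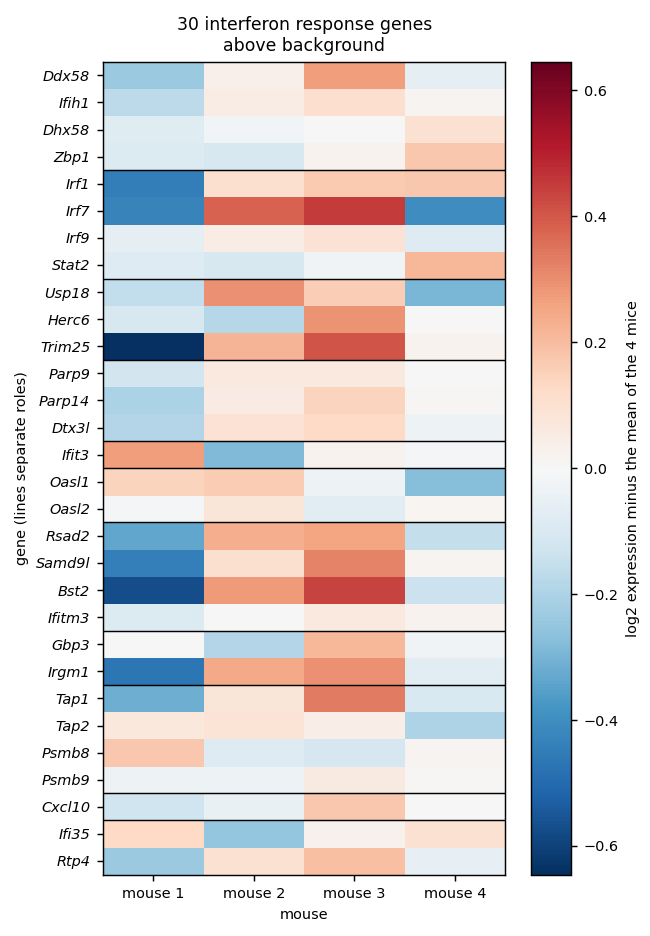
Log2 expression of each of the 30 interferon response genes above background (rows, lines separating roles) minus its mean over the 4 mice (colour), in mice 1 to 4 (columns). Mouse 1 is blue in most rows and mouse 3 is red in most, while Ifit3, Psmb8 and Ifi35 are red in mouse 1.

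Markers of other cells differed between the mice as well. Of 13 pancreatic acinar genes measured, 11 were above background, and all 11 differed by more than 1.5-fold. Their mean level was 8.22, 6.17, 6.47 and 8.01 in mice 1 to 4, and none of the 11 took the order of mice 1, 4, 2 and 3. They were high in mice 1 and 4. The 13 interferon response genes in this order were lower in mice 1 and 4 than in mice 2 and 3, as were Irf9 and Usp18. By contrast, Ifi35 and Psmb8 were higher in mice 1 and 4. Of all genes, 14.3% took the order of the 13 genes, 3.32% that of Irf9 and 3.03% that of Usp18. A further 8.27% had mouse 1 lowest, then mice 4, 3 and 2, which no interferon response gene did. The order of Ifi35 was taken by 4.19% of all genes and that of Psmb8 by 4.33%. Cpa1, a pancreatic carboxypeptidase, was 9.02, 6.31, 6.69 and 8.49, and Ctrb1, a chymotrypsinogen, was 9.49, 6.58, 7.14 and 9.01. Of 7 stellate cell genes, all above background, 3 differed by more than 1.5-fold (12.9% of all genes), or 2 after quantile normalization (10.6%). Lrat, which stores retinol in these cells, was 8.29, 9.23, 9.33 and 8.84, and Dcn, the matrix protein decorin, was 10.74, 11.58, 11.63 and 11.25, so that both followed the order of mice 1, 4, 2 and 3. In all, 3 of the 7 took this order (14.3% of all genes), and Des was instead highest in mouse 1 and Rgs5 lowest in mouse 2. Of the 8 hepatocyte markers, 5 took the order (14.3% of all genes), 7 were lowest in mouse 1 (46.1%) and 6 were highest in mouse 3 (31.4%). Their range was at most 1.34-fold. Their median difference from the other mice was -0.09 in mouse 1 and 0.11 in mouse 3. In the classes of their mean level it was -0.23 and 0.13. After quantile normalization the medians of the markers were -0.02 and 0.04. The part of acinar, stellate or hepatocyte RNA in the spread of the interferon response genes was not tested.

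Among markers of leukocytes, all 10 genes of Kupffer cells were above background, with mean levels of 7.44, 7.49, 7.48 and 7.53 in mice 1 to 4. Clec4f, specific to Kupffer cells, was 8.73, 8.44, 8.36 and 8.68, and Marco, a scavenger receptor, was 7.06, 6.31, 6.14 and 6.63, both lowest in mouse 3. In contrast, Vsig4, a complement receptor, was 7.90, 8.37, 8.55 and 8.53 and lowest in mouse 1, and Adgre1, a surface receptor of macrophages, was between 6.78 and 7.12. Of the lymphocyte lists, 2 of 6 T cell genes, 1 of 7 NK cell genes and 2 of 5 B cell genes were above background. These were Cd3e and Cd8a for T cells, Prf1 for NK cells, and Cd79b and Ighm for B cells. Cd3e was 6.47, 6.23, 6.45 and 6.52 in mice 1 to 4. Cd3d, Ncr1, Klrb1c and Cd79a were above the limit on 0 arrays. Of 7 neutrophil genes, 2 were above background. Of 6 genes listed for plasmacytoid dendritic cells, the main producers of interferon alpha, 4 were above background. Siglech was 5.61, 5.94, 5.91 and 5.72, in mouse 1 close to the limit of 5.52, and Ccr9 was above the limit on 0 arrays.

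The ligands that could start the response were mostly not detected. Of 20 interferon genes listed, 16 were measured and 3 were above background. Ifnb1, the interferon beta gene, was 5.42, 4.90, 5.07 and 5.04 in mice 1 to 4, and Ifng, the interferon gamma gene of T and NK cells, was 5.05, 5.26, 5.01 and 5.14, both above the limit on 0 arrays. The 3 above background were Ifna5 with 7.27, 7.06, 6.57 and 6.91, Ifnz with 5.87, 6.10, 6.22 and 6.33, and Ifnl2, a type III interferon, with 7.59, 7.60, 7.57 and 7.15. Ifna5 was highest and Ifnz lowest in mouse 1. The interferon alpha genes are close copies of each other, so that signal on one of their probe sets can come from several of them. Ifna2 was above the limit on 3 arrays and Ifna14 on 1 array, and Ifna4, Ifna9, Ifna11, Ifna12, Ifna13, Ifna16, Ifnab, Ifne and Ifnk were above it on 0 arrays.

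In contrast, the receptors for these ligands were expressed. Of 13 measured genes of receptors, JAK kinases and their inhibitors, 12 were above background and 2 differed by more than 1.5-fold. Ifngr1, the ligand-binding chain of the interferon gamma receptor, was 7.26, 7.80, 7.94 and 8.00 in mice 1 to 4, a 1.66-fold range with mouse 1 lowest. Its partner chain Ifngr2 was 8.74, 8.75, 8.71 and 8.72 with an SD of 0.02. The chains of the type I receptor were 7.78, 8.02, 8.06 and 7.74 for Ifnar1 and 8.85, 9.20, 9.20 and 9.19 for Ifnar2. Il10rb, the chain that type III interferons share with interleukin 10, was 6.51, 7.06, 7.27 and 6.72 and took the order of mice 1, 4, 2 and 3. Ifnlr1, the specific chain for type III interferons, was above the limit on 0 arrays. Ptpn2, a phosphatase that restrains JAK kinases, was 6.73, 6.32, 6.47 and 6.86, and Jak2 ranged from 6.96 to 7.06.

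Of 17 genes for sensing upstream of the interferons, 16 were measured, 11 were above background and 1 differed by more than 1.5-fold. This was Irf2, an antagonist of Irf1, with 7.83, 8.37, 8.26 and 8.45 in mice 1 to 4, a 1.53-fold range that was below 1.5-fold after quantile normalization. Mavs, the mitochondrial adaptor of RIG-I and MDA5, was 8.87, 9.25, 9.31 and 9.45, lowest in mouse 1 and highest in mouse 4. Tlr9, the endosomal receptor for DNA, was 6.54, 6.52, 6.19 and 6.13. The kinase Ikbke varied between 6.34 and 6.44 and the factor Irf3 between 6.99 and 7.19. The receptors Tlr4, Tlr7 and Tlr8 and the DNA sensor Cgas were above the limit on 0 arrays.

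Further interferon-stimulated genes outside the set were listed for comparison. Of 63 listed, 51 were measured and 39 above background, and 9 of these 39 (23.1%) differed by more than 1.5-fold, or 7 after quantile normalization. Of the 9, 8 were lowest in mouse 1, beside the 60.5% of all genes over 1.5-fold. Cxcl9, a chemokine induced by interferon gamma, was 6.94, 8.36, 8.31 and 7.78 in mice 1 to 4, a 2.68-fold range. Iigp1, a GTPase of the IRG family, was 9.03, 9.95, 9.93 and 9.66, and Slfn5 was 5.59, 6.37, 6.42 and 6.05. All 3 were lowest in mouse 1 with mouse 4 next, whereas Ifi27 and Tor3a had SDs of 0.02 and 0.03. Their promoters held the response element in 25 of 48 genes (52.1%). The median difference of the 39 genes in mouse 1 was -0.25, and -0.17 after quantile normalization. The order of mice 1, 4, 2 and 3 was taken by 7 of the 39, compared with 14.3% of all genes and 13 of the 30 genes of the set. Mouse 3 held the highest value in 12 of the 39, compared with 31.4% of all genes and 19 of the 30. Both shares of the 39 were nearer to those of all genes than to those of the set.

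The 9 measured genes of MHC class I presentation outside the set were all above background, and 2 exceeded a 1.5-fold range, 1 of them after quantile normalization. B2m, the light chain of MHC class I, was 12.69, 13.16, 13.29 and 12.93 in mice 1 to 4, in the order of mice 1, 4, 2 and 3. Psme2, a subunit of the proteasome activator, was 9.06, 8.51, 8.40 and 8.51 and thus highest in mouse 1, as were Psmb8 and Ifit3. H2-M3, a non-classical heavy chain, ranged from 5.79 in mouse 1 to 6.28 in mouse 2, and Psmb10 and Tapbp had SDs of 0.05 and 0.16.

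**Figure D5:**
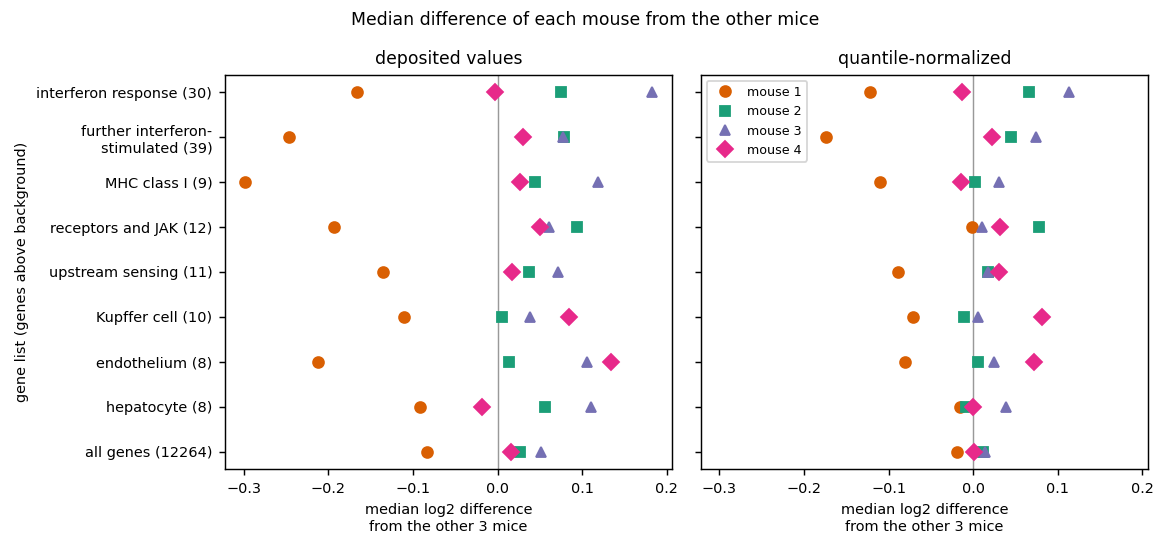
Median over the genes of each list above background (rows, number of genes in parentheses) of the log2 difference of a mouse from the mean of the other 3 mice (x axis), for deposited values (left) and after quantile normalization (right). The interferon response genes lie at -0.17 in mouse 1 and 0.18 in mouse 3 on the left and at -0.12 and 0.11 on the right, while all genes lie at -0.08 and 0.05 on the left and at -0.02 and 0.01 on the right.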

How the data were processed

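Liver RNA of 4 aP2-SREBP-1c mice was analysed from the deposited gene-level values, with 1 array per mouse and 1 group by the sample labels. The deposited values are RMA signals on the log2 scale, made with the Affymetrix Expression Console according to the submitters' processing notes. RMA corrects the background, equalizes array distributions and summarizes the probes of a gene. Which arrays were normalized together, scan batches and the genome build are not given in the sources used here. All 4 columns matched a mouse by title, and 0 columns had no sample. At most 25 values were identical between any pair of arrays, and correlations across genes above background, which are not independent replicates, were 0.974 to 0.993.

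Of 35556 probe sets, 21789 had 1 symbol in the platform annotation, 1621 several and 12146 none, and 0 symbols needed updating. Only probe sets with 1 symbol were used. The interferon response genes and all other lists were chosen with earlier results of these data known. Named were all 41 genes, all ligands and receptors, of the other pathway lists the genes above background with the 3 highest and 2 lowest SDs, and of marker lists mainly the first 2 genes and those with the largest SD. Means and SDs were taken directly from the values of the 4 mice. The 95% confidence intervals came from a one-group fit with lmFit and eBayes (limma 3.58.1, R 4.3.3). This fit draws the variance of each gene toward that of all genes above background. The intervals of genes with a large SD, such as Irf7, Trim25 and Bst2, are therefore narrower than their own SD would give. In data for 12264 genes simulated from the fitted model itself, 95.2% of the intervals held the true mean. This checks the calculation only and not whether the model holds for the real genes. The SD includes technical error, and the number of arrays limits the precision. Neighbouring genes and promoter windows were taken from RefSeq, GRCm38.p6. Promoters of 10 genes were not at hand, namely Parp14, Oas2, Mx1, Mx2, Parp9, Usp18, Tap2, Rtp4, Dhx58 and Zbp1. The alternatives were median-centred and quantile-normalized arrays, the mean of all probe sets, other background limits, no filter on low values, a 2-fold range, leaving out each mouse, and shared probe sets accepted. Other steps ran in Python 3.11.15 (pandas 2.3.3, numpy 2.4.6), and figures were drawn with matplotlib 3.10.9.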

Additional observations from a re-analysis of the deposited data

Results flagged for a closer look

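In 4 of the 37 measured genes, 1 mouse lay apart from the other 3 by the gap to its nearest neighbour relative to the range. Irf1 in mouse 1 was -0.60 from the mean of the others on the log2 scale, Cmpk2 in mouse 1 was -0.43, Xaf1 in mouse 1 was -0.41 and Tap2 in mouse 4 was -0.27. Chance gives such a gap in about 1 of 20 groups, and 5.75% of all genes above background had one. Cmpk2 and Xaf1 were below the background limit in mouse 1. They are therefore not among the genes above background to which the 5.75% refers, whereas Irf1 and Tap2 are.

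Some probe sets that the values above do not rest on were above the background limit on all 4 arrays. The second probe set of Irf1 had a mean of 6.02, that shared by Isg15 and Gm9706 a mean of 5.78 and that shared by Igtp and Irgm2 a mean of 7.10. In the shared probe sets, the signal cannot be assigned to either gene.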

How the results depend on the processing

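Of 105 counts and medians recomputed under alternatives, 100 stayed within 1.5 times the count or within the spread between mice or left-out mice of the median. These limits are wide, since they include a change of sign of the median difference of mouse 2, from 0.08 to -0.02 without mouse 1, and a decrease of the genes highest in mouse 3 from 19 to 14 after quantile normalization. The level of Irf1 was 6.47 with the mean of its probe sets. The number of genes over the range was 2 with a 2-fold range and 3 to 8 when a mouse was left out, 3 being the count without mouse 1. The number lowest in mouse 3 was 1 in median-centred arrays, that highest in mouse 1 was 7 in quantile-normalized arrays, and that lowest in mouse 4 was 7 without a filter on low values. Other settings gave 7 to 11 genes over 1.5-fold. With the 99th percentile as the limit, Cxcl10, Dhx58, Rsad2, Usp18 and Zbp1 were no longer above background, leaving 25 genes, so that signal over background limits what can be said of them. With shared probe sets accepted, a choice made after seeing the data, 32 genes were above background and 9 over 1.5-fold. No paired analysis was possible because all 4 mice belong to 1 group.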
